A study of Mus musculus with 16 samples.

Results

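The extracellular matrix of the brain was examined through 10 genes, namely the lectican genes *Acan*, *Bcan*, *Ncan* and *Vcan*, the link protein genes *Hapln1*, *Hapln2* and *Hapln4*, the tenascin genes *Tnr* and *Tnc*, and the receptor phosphatase gene *Ptprz1*. They were picked by name for their place in perineuronal nets and the neural matrix, not by a threshold on their values, although earlier results of these data were known, and all 10 were found among the 39179 gene identifiers of the count table. Each of them passed the filter on low counts in every comparison, with 50 to 5310 counts in any one mouse. The study sequenced brain RNA of 16 mice in 4 groups of 4. They were wild-type (*MRPS5* WT) animals and animals homozygous for the V338Y knock-in of *MRPS5*, aged 3 or 19 months. The *MRPS5* product belongs to the small subunit of mitochondrial ribosomes, and the exchanged residue makes these ribosomes misread; the allele is present in every cell and throughout life. The questions addressed were how these matrix genes differ between young and old brain, and whether the mutation shifts their level or their age difference.

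Lecticans are chondroitin sulfate proteoglycans that bind hyaluronan at one end and tenascins at the other, and link proteins lock the lectican to the hyaluronan chain. Together they form the loose matrix between neurons and glia and, in a denser form, the perineuronal nets that wrap cell bodies of many parvalbumin interneurons and the collars around nodes of Ranvier. Aggrecan, the product of *Acan*, is the defining lectican of nets, and such nets are known for limiting plasticity in the mature cortex.

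Depth ran from 6181448 to 19601664 counts a mouse. The V338Y mice of 3 months (13620218 to 19601664) lay above the wild-type mice of 19 months (6181448 to 12658661), while the groups compared with each other overlapped in depth. Median depth was nevertheless higher in V338Y than in wild-type mice at both ages. It was 15789042.5 against 11157809 counts at 3 months and 15995066.5 against 11047919.5 counts at 19 months. The labels give brain as the tissue, although their extraction note speaks of muscle, and the study's methods describe cortex. Cortex markers were detected in every group, at a summed level of 223 to 301 CPM (the count per library total, scaled in the usual way) at 3 months and 271 to 313 CPM at 19 months. The highest sum at 3 months, 300.6 CPM, was that of V338Y mouse 14. The other young mice were at 223 to 264 CPM, below all old mice. Of 10 cerebellum markers, 9 were lower at 19 months in each genotype, and they summed to 698 to 1211 CPM in the wild-type mice of 3 months and to 82.8 to 104 CPM in all 8 mice of 19 months. Among the V338Y mice of 3 months they summed to 1462, 100.3, 1972 and 1322 CPM in mice 13, 14, 15 and 16, so by this sum mouse 14 stood with the old mice. By the mean log2 CPM of the same markers it was at 2.39, above the 1.03 to 1.72 of the old mice and below the 5.35 to 6.55 of the other young ones. The methods describe all mice as female, yet the 8 mice of 3 months carried the Y-linked *Ddx3y* at 96.7 to 128 CPM and *Xist* at 0.443 to 1.19 CPM, whereas the 8 mice of 19 months had 0 counts of *Ddx3y*, *Uty*, *Eif2s3y* and *Kdm5d* and *Xist* at 705 to 1182 CPM. Age and these sex-linked transcripts therefore cannot be told apart in any age difference given here. *Mrps5* itself was at 39.3 ± 1.14 and 39.3 ± 3.31 CPM (SD, n = 4) at 3 months and at 30.2 ± 1.98 and 30.3 ± 1.72 CPM at 19 months, in wild-type and V338Y mice; a changed residue need not alter the level, so this does not check the genotype labels.

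Each lectican gene lies beside a link protein gene, with no annotated protein-coding gene between them (GENCODE M21, GRCm38). *Bcan* (chr3:87987531-88000230, minus strand) and *Hapln2* (chr3:88021750-88027583, minus strand) are 21519 bases apart. *Ncan* (chr8:70093085-70120873, minus strand) and *Hapln4* (chr8:70083457-70090862, plus strand) point towards each other across 2222 bases. *Vcan* (chr13:89655312-89742509, minus strand) and *Hapln1* (chr13:89539796-89611652, plus strand) do so across 43659 bases. *Acan* (chr7:79053483-79115099, plus strand) ends 2 bases from *Hapln3*, the link protein gene outside the set. *Tnr* (chr1:159523769-159931729, plus strand), *Tnc* (chr4:63959785-64047015, minus strand) and *Ptprz1* (chr6:22875502-23052916, plus strand) stand alone. Annotated genes that overlap a member and were counted had at most 22 counts in any mouse.

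The promoters shown are those of the 5 genes whose level was higher at 19 months in both genotypes, with no overlap between the ages. The letters run 5′ to 3′ on the gene's strand and run up to the RefSeq start of transcription. They come from the RefSeq promoter table for GRCm38.p6, which held 9 of the 10 genes, all but *Hapln4*. The 72 bases of *Hapln2* and the 29 bases of *Ncan* nearest the start, which GENCODE places inside the gene, are left off. Capitals mark a CCAAT box, a GC box (GGGCGG) or a SOX motif (ACAAAG), on either strand.
Bcan (chr3:88000357-88000606, minus strand): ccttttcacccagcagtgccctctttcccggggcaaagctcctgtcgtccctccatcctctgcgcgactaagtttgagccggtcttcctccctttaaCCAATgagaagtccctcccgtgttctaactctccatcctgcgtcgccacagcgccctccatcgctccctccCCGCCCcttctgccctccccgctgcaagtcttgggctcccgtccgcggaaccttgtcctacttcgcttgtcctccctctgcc
Hapln2 (chr3:88027584-88027761, minus strand): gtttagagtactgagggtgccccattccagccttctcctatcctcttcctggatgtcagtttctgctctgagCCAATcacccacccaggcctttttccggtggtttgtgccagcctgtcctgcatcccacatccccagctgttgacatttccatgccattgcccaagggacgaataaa
Ncan (chr8:70120874-70121094, minus strand): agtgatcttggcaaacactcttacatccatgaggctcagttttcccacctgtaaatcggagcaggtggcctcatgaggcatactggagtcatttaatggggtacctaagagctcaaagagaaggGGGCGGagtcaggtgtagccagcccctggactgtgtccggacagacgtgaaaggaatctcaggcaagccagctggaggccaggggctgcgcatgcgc
Tnr (chr1:159523519-159523768, plus strand): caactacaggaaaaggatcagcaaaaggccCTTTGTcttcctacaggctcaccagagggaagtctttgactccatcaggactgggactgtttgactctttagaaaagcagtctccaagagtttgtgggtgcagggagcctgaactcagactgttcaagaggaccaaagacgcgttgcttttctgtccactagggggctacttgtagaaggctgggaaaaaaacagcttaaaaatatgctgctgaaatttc
Ptprz1 (chr6:22875252-22875501, plus strand): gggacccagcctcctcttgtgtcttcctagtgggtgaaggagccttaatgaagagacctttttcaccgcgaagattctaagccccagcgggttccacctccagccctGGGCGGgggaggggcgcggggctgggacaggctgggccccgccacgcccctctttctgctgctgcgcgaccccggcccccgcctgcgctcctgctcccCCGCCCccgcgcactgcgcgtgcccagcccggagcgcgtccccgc

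No searched motif was common to these 5 promoters. CCAAT stood before *Bcan* and *Hapln2*, against 33.8% of all 32817 promoters in the table. The GC box stood before *Bcan*, *Ncan* and *Ptprz1* (32.7% of all promoters), the SOX motif before *Tnr* alone (16.5%), and a TATA box (TATAAA) before *Ncan* alone (12.4%), in the bases left off above. The number of CpG dinucleotides in the 250 bases was 16 for *Bcan*, 22 for *Ptprz1*, 6 for *Ncan*, and 2 each for *Tnr* and *Hapln2*, where the median of all promoters was 6 (quartiles 2 and 16). The promoters of these 5 genes thus ranged from CpG-rich to CpG-poor.

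Levels were compared between genes per kilobase of exon (CPM per kb, mean ± SD, n = 4). *Bcan*, encoding the short lectican brevican, was the highest of the 10 in all 4 groups, at 43.5 ± 3.69 and 41.7 ± 3.42 CPM per kb in wild-type and V338Y mice of 3 months and 65.1 ± 1.13 and 65.3 ± 1.31 at 19 months. At 3 months *Ncan* and *Hapln4* came next and overlapped, at 20.1 ± 1.70 and 20.5 ± 1.04 CPM per kb in wild-type mice. At 19 months *Ncan* was at 33.5 ± 1.06 CPM per kb in wild-type mice and *Hapln4* at 16.02 ± 0.753, behind *Hapln2* and *Ptprz1*, which overlapped each other. *Tnr* followed in every group, *Vcan* and *Hapln1* were below it, and *Tnc* and *Acan* were the lowest, with *Acan* at 1.24 to 1.46 CPM per kb by group mean. Of the summed lectican level per kb, *Bcan* made up 63.1% to 64.7% by group, *Ncan* 30.0% to 32.4% and *Vcan* 2.98% to 4.09%. The share of *Acan* was 2.17% ± 0.182 at 3 months and 1.203% ± 0.0917 at 19 months in wild-type mice, and 1.95% ± 0.197 and 1.43% ± 0.180 in V338Y mice, with no overlap between the ages in either genotype. A share falls when the other lecticans rise, so this does not show a fall of *Acan* itself.

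**Figure D1:**
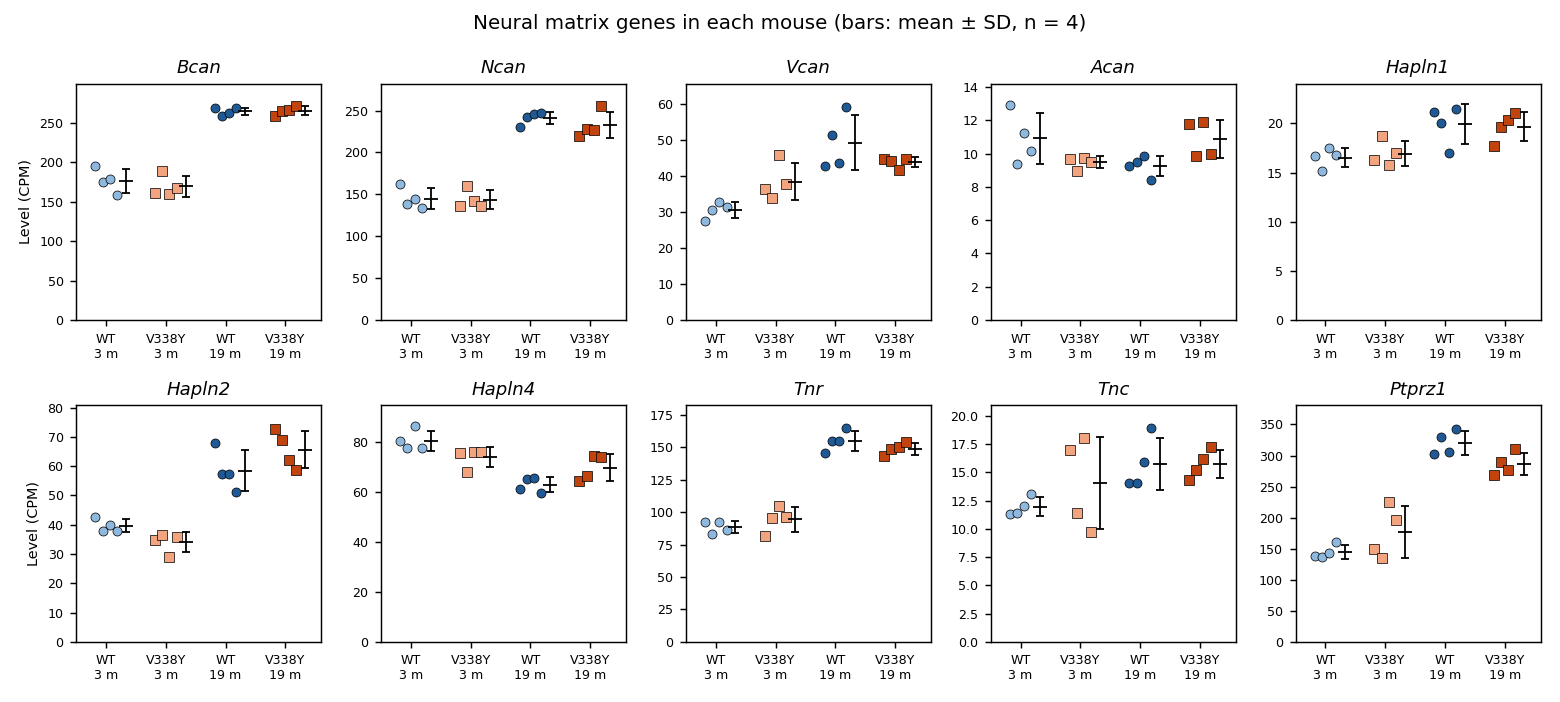
Level of each of the 10 genes in each of the 16 mice (CPM, y axis from 0), by genotype and age, with the mean ± SD of 4 mice beside the points. *Bcan*, *Ncan*, *Tnr*, *Hapln2* and *Ptprz1* are higher in all 8 mice of 19 months than in any mouse of 3 months, while *Hapln4* is lower at 19 months in wild-type mice.

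Between 3 and 19 months, the neural matrix genes mostly rose. In wild-type mice 9 of the 10 passed the test, 8 higher and 1 (*Hapln4*) lower, where 62.8% of all 16101 genes tested passed, 31.4% higher and 31.5% lower. The median log2 fold change of the 10 was 0.59, against -0.0050 over all genes. In V338Y mice 6 of the 10 passed, all of them higher, where 48.8% of 16770 genes passed, 23.1% higher and 25.7% lower, and the median was 0.43 against -0.03. The ranges of the ages did not overlap for 7 higher and 1 lower members in wild-type mice (all genes: 26.9% and 28.5%) and for 6 higher members in V338Y mice (all genes: 22.2% higher and 21.9% lower). *Bcan*, *Ncan*, *Tnr*, *Hapln2* and *Ptprz1* rose in both genotypes, and did so under each of the 14 alternatives other than a fit with cerebellum markers, given below. Adjusted p-values are from the quasi-likelihood test of edgeR over all genes tested, folds are 19 against 3 months, and errors of log2 fold changes are standard errors.

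Among the lecticans, *Bcan* was at 195, 175, 179 and 158 CPM in the 4 wild-type mice of 3 months and at 268, 259, 263 and 268 CPM in those of 19 months. The V338Y mice had 161, 189.6, 159.8 and 167 CPM at 3 months and 259, 266, 266 and 272 CPM at 19 months. Every old mouse was above every young one in both genotypes, and *Bcan* rose by 0.60 ± 0.0484 on the log2 scale in wild-type mice (1.51-fold, adjusted p = 7.7e-12) and by 0.64 ± 0.0603 in V338Y mice (1.56-fold, adjusted p = 3.3e-06). Values here and below follow mouse number, 9 to 12 and 13 to 16 at 3 months and 12 to 15 and 17 to 20 at 19 months, and a shared number does not mark a shared animal. *Ncan* was at 162, 139, 145 and 134 CPM in the 4 wild-type mice of 3 months and at 230.0, 242, 246 and 247 CPM in those of 19 months. For V338Y mice the values were 137, 160.0, 142 and 136 CPM at 3 months and 219.7, 229, 227 and 255 CPM at 19 months. *Ncan*, encoding neurocan, a lectican best known from the developing brain, was likewise higher in every old mouse, by 0.75 ± 0.0495 in wild-type (1.68-fold, adjusted p = 7.9e-14) and 0.69 ± 0.0689 in V338Y mice (1.61-fold, adjusted p = 5.7e-06).

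*Vcan* was at 27.5, 30.7, 32.9 and 31.6 CPM in the 4 wild-type mice of 3 months and at 42.9, 51.5, 43.6 and 59.3 CPM in those of 19 months. V338Y mice were at 36.4, 33.8, 45.8 and 37.95 CPM when young and at 44.9, 44.2, 41.9 and 44.8 CPM when old. Versican, its product, is the largest lectican and is made by oligodendrocyte precursors and by cells of the vessel wall and meninges. *Vcan* rose in wild-type mice (log2 0.67 ± 0.0878, 1.595-fold, adjusted p = 1.0e-06), with no overlap of the ages. In V338Y mice the ages overlapped through mouse 15 of the young group and the log2 difference was 0.18 ± 0.0912 (adjusted p = 0.117); without mouse 15 it was 0.29 and passed (adjusted p = 0.00201). *Acan* was at 12.9, 9.39, 11.3 and 10.2 CPM in the 4 wild-type mice of 3 months and at 9.26, 9.51, 9.85 and 8.45 CPM in those of 19 months. The young V338Y mice had 9.696, 8.96, 9.77 and 9.503 CPM and the old ones 11.8, 9.85, 11.9 and 9.98 CPM. The wild-type ages overlapped, with a log2 difference of -0.20 ± 0.117 (adjusted p = 0.146), and *Acan* passed as lower only with library size in place of TMM (-0.29, adjusted p = 0.0318). In V338Y mice all 4 old mice lay above all 4 young ones by a narrow margin, and the log2 difference of 0.19 ± 0.100 did not pass (adjusted p = 0.134).

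Of the link protein genes, *Hapln2*, which oligodendrocytes express and whose product sits at nodes of Ranvier, rose in both genotypes. *Hapln2* was at 42.7, 37.9, 39.97 and 38.03 CPM in the 4 wild-type mice of 3 months and at 67.98, 57.5, 57.4 and 51.2 CPM in those of 19 months. V338Y mice showed 34.96, 36.6, 29.02 and 35.7 CPM at 3 months and 72.6, 69.1, 62.1 and 58.8 CPM at 19 months. The ages were well apart, at log2 0.59 ± 0.0703 in wild-type (1.51-fold, adjusted p = 2.8e-08) and 0.93 ± 0.0802 in V338Y mice (1.91-fold, adjusted p = 1.5e-06). *Hapln4* was at 80.3, 77.6, 86.3 and 77.7 CPM in the 4 wild-type mice of 3 months and at 61.3, 65.01, 65.6 and 59.5 CPM in those of 19 months. Levels in V338Y mice were 75.7, 68.04, 76.02 and 76.2 CPM at 3 months and 64.3, 66.3, 74.6 and 74.1 CPM at 19 months. *Hapln4*, whose product anchors brevican in nets of the brainstem and cerebellum, was the one member that fell, by 0.34 on the log2 scale in wild-type mice (SE 0.0546, 0.790-fold, adjusted p = 2.8e-06), with every old mouse below every young one. In V338Y mice the ages overlapped and the difference was -0.09 ± 0.0693 (adjusted p = 0.305). *Hapln1* was at 16.6, 15.1, 17.5 and 16.8 CPM in the 4 wild-type mice of 3 months and at 21.1, 20.01, 17 and 21.5 CPM in those of 19 months. Young V338Y mice were at 16.3, 18.7, 15.7 and 16.99 CPM and old ones at 17.7, 19.6, 20.4 and 21.1 CPM. *Hapln1*, the link protein gene tied to cortical nets, rose modestly with overlapping ages, at log2 0.28 ± 0.0896 in wild-type (adjusted p = 0.00691) and 0.21 ± 0.0814 in V338Y mice (adjusted p = 0.0452). The V338Y call passed in only 5 of the 14 alternatives, failing without any one of mice 13, 15, 16, 18, 19 and 20, on library size alone, without the filter on counts and with DESeq2 (adjusted p = 0.0563), and the wild-type call was lost on library size alone (adjusted p = 0.0649).

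The tenascins crosslink lecticans, and tenascin-R, made by oligodendrocytes and some neurons, is the form of mature nets. *Tnr* was at 92.6, 83.4, 92.2 and 86.3 CPM in the 4 wild-type mice of 3 months and at 145, 155, 155 and 165 CPM in those of 19 months. In V338Y mice it stood at 81.8, 95.3, 105 and 96.2 CPM at 3 months and 143, 148, 150.0 and 154 CPM at 19 months. All old mice were above all young ones, and *Tnr* rose by 0.82 ± 0.0502 on the log2 scale in wild-type (1.76-fold, adjusted p = 6.8e-15) and by 0.65 ± 0.0758 in V338Y mice (1.57-fold, adjusted p = 2.1e-05). *Tnc* was at 11.3, 11.4, 12.1 and 13.1 CPM in the 4 wild-type mice of 3 months and at 14.1, 14.1, 15.9 and 18.9 CPM in those of 19 months. The V338Y values were 16.97, 11.4, 18.1 and 9.74 CPM at 3 months and 14.3, 15.2, 16.2 and 17.3 CPM at 19 months. *Tnc*, encoding tenascin-C of astrocytes and injured tissue, rose in wild-type mice (log2 0.37 ± 0.105, adjusted p = 0.00257), a call that was lost when all 16 mice were fitted together (adjusted p = 0.0764). The young V338Y mice were spread so widely for *Tnc* that mouse 15 lay above all old V338Y mice and mouse 16 below them, and its difference of 0.17 ± 0.192 did not pass (adjusted p = 0.497).

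*Ptprz1* was at 137, 137, 142 and 160.4 CPM in the 4 wild-type mice of 3 months and at 302, 330.5, 306 and 342 CPM in those of 19 months. Among V338Y mice the young had 149, 135, 226 and 196 CPM and the old 269, 289, 277 and 311 CPM. *Ptprz1* encodes a receptor phosphatase of astrocytes and oligodendrocyte precursors, whose secreted form, phosphacan, binds tenascins. It had the largest age difference of the 10 in wild-type mice, a log2 rise of 1.16 ± 0.0512 (2.23-fold, 95% interval 2.08 to 2.403, adjusted p = 1.2e-16). In V338Y mice it rose by 0.69 ± 0.165 (1.61-fold, 95% interval 1.24 to 2.099, adjusted p = 0.00900), where mice 15 and 16 of the young group were well above mice 13 and 14, and a fit that includes cerebellum markers gave 1.23 (adjusted p = 0.00888).

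The cerebellum markers moved with age as well, and in wild-type mice 99.2% of the variance of their score lay between the ages. Fitted with that score, none of the 10 passed with edgeR in wild-type mice, and 101 of all genes did; the fit cannot tell the score from age there. In V338Y mice 71.4% of its variance lay between the ages, and 6 members passed with it, *Vcan* now among them (log2 0.47, adjusted p = 0.0206) and *Hapln1* not (0.03, adjusted p = 0.875). Among the young V338Y mice the score was 2.39 in mouse 14 and 6.09 to 6.55 in the others. Estimates from this fit in V338Y mice therefore lean on that 1 mouse. The young V338Y mouse 14, whose cerebellum marker sum was that of the old mice although its mean log2 level was not, can be set beside them. Its level was below that of all 8 old mice for 7 members, namely *Bcan* (189.6 CPM against 259 to 272), *Ncan* (160.0 against 219.7 to 255), *Tnr* (95.3 against 143 to 165), *Ptprz1* (135 against 269 to 342), *Hapln2* (36.6 against 51.2 to 72.6), *Vcan* (33.8 against 41.9 to 59.3) and *Tnc* (11.4 against 14.1 to 18.9). The mean of the old V338Y mice was 2.13 times the level of mouse 14 for *Ptprz1*, 1.79 times for *Hapln2*, 1.56 times for *Tnr*, 1.45 times for *Ncan* and 1.40 times for *Bcan*. For *Hapln4* mouse 14 was at 68.0 CPM, within the 59.5 to 74.6 CPM of the old mice and below the 75.7 to 86.3 CPM of the other young ones, and for *Acan* and *Hapln1* it was also within the range of the old mice. This is 1 mouse, and sex-linked transcripts in it were those of the other young mice. The share of all genes for which mouse 14 lay below the old mice was not counted, so the 7 members cannot be set against it. The part of the cerebellum markers in the age differences was not tested.

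**Figure D2:**
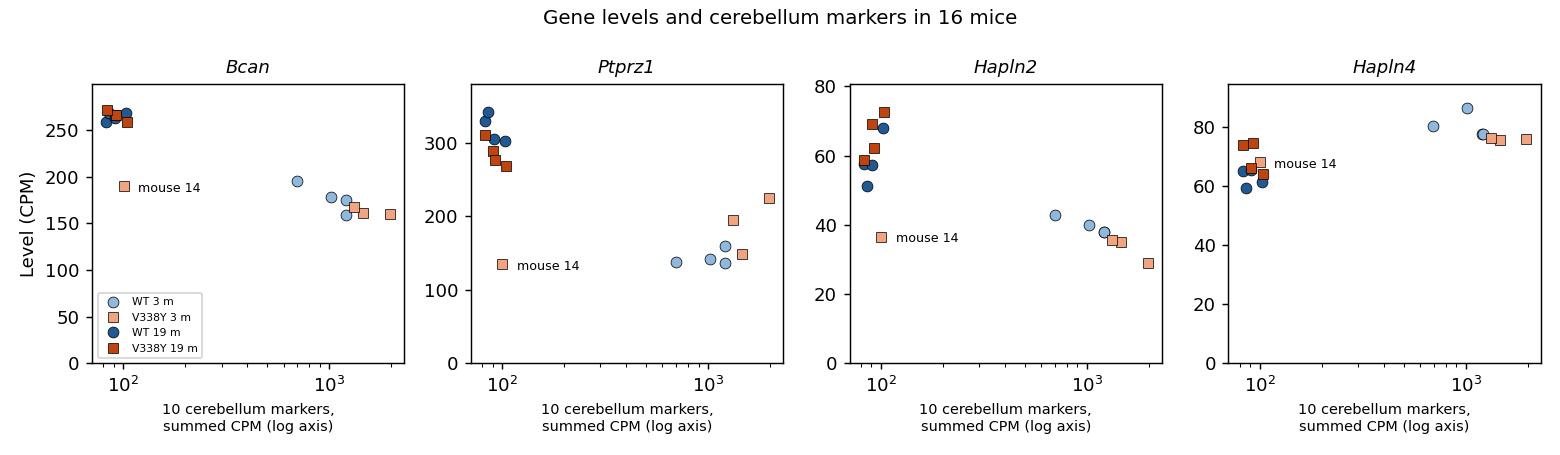
Level of *Bcan*, *Ptprz1*, *Hapln2* and *Hapln4* (CPM, y axis from 0) against the summed level of 10 cerebellum markers (CPM, log axis) in each of the 16 mice, with the V338Y mouse 14 of 3 months labelled. Mouse 14 lies at the left with the old mice, where its *Bcan*, *Ptprz1* and *Hapln2* are below those of all old mice and its *Hapln4* is among theirs.

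Markers of the cells that make these proteins moved with age too. Of 11 astrocyte markers, 10 rose in wild-type and 9 in V338Y mice, and their sum went from 5594 to 6283 CPM in the young to 9253 to 10918 CPM in the old mice. Of 9 oligodendrocyte precursor markers, 5 rose and 1 fell in wild-type and 5 rose in V338Y mice (sums 222 to 297 and 359 to 378 CPM). Of 11 oligodendrocyte markers, 7 rose and 1 fell in wild-type and 6 rose in V338Y mice (sums 3840 to 4837 and 6427 to 7539 CPM). Parvalbumin interneuron markers had more falls than rises, with 7 lower and 1 (*Erbb4*) higher of 10 in wild-type and 5 lower in V338Y mice (sums 1256 to 1653 and 996 to 1105 CPM). Cerebellum markers fell with them, and among the young V338Y mice the parvalbumin sums of 1470.1, 1256, 1653 and 1433 CPM in mice 13 to 16 had the same order as the cerebellum sums, with mouse 14 lowest in both. *Pvalb* itself fell by 1.74 on the log2 scale in wild-type (adjusted p = 1.8e-08) and by 1.59 in V338Y mice (adjusted p = 0.00497), and was 0.40 higher in V338Y than in wild-type mice at 19 months (adjusted p = 1.4e-04). That was the largest genotype difference of its list at 19 months. Of the 10 markers, 2 were called higher in V338Y mice and 8 were not called, with a median of 0.14 (all genes: 3.12% called in either direction). No marker of these lists was at 0 in a whole group, and their part in the changes of the 10 genes was not tested. In bulk RNA, fewer cells of a type and less RNA per cell cannot be told apart.

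The fibrous matrix, meaning the collagens, elastic fibres and small leucine-rich proteoglycans of vessels and meninges, rose in both genotypes with larger medians than the neural matrix genes. Of 24 such genes, 22 rose and 0 fell in wild-type mice, with a median log2 fold change of 1.31, and 21 rose and 0 fell in V338Y mice, with a median of 1.06; DESeq2 called 22 in each. The largest rises were those of *Bgn* (biglycan, 2.80 ± 0.133, adjusted p = 1.3e-17), *Fn1* (fibronectin, 2.52 ± 0.0734, adjusted p = 6.9e-14) and the less abundant *Lox* (lysyl oxidase, 2.43 ± 0.260, adjusted p = 1.8e-09) in wild-type mice, and the same genes led in V338Y mice, at 2.08, 1.75 and 2.23. Only *Col5a1* and *Col6a1* did not pass in wild-type mice. Among the neural matrix genes only *Ptprz1* in wild-type mice exceeded a log2 change of 1, and *Hapln4* in wild-type mice was the only member called lower. No fibrous gene was called lower in either genotype, except 1 in V338Y mice on library size alone and without young mouse 16. The 12 basement membrane genes were like the fibrous list (12 and 11 higher, medians 1.33 and 1.21), led by *Hspg2*, encoding perlecan, at 2.09 and 1.82. Meningeal fibroblast markers (7 of 7 and 6 of 7 higher, sums 40.6 to 65.1 CPM in young and 119.5 to 182 CPM in old mice) and endothelial markers (8 of 8 higher in each genotype, sums 234 to 254 and 1021 to 1192 CPM) rose as well, and their part in the fibrous change was not tested. The lists were not tested against each other.

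**Figure D3:**
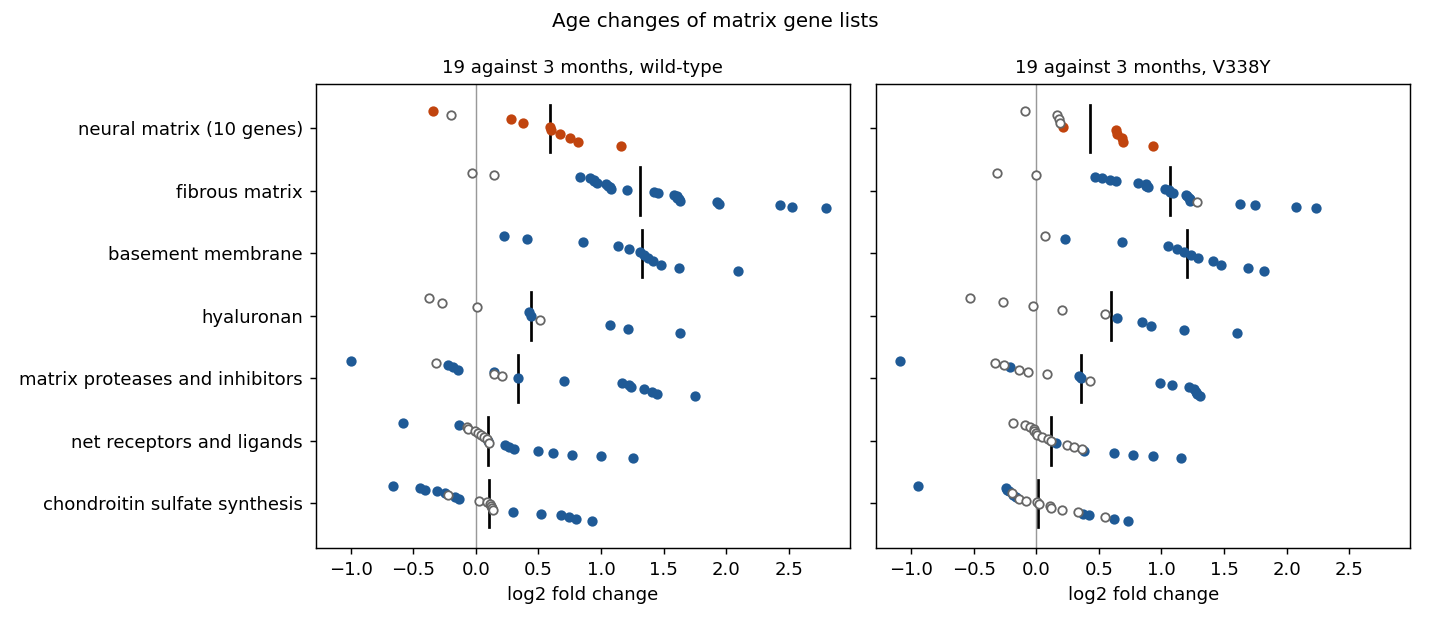
Age difference (log2 fold change, 19 against 3 months) of each gene in 7 matrix lists, for wild-type (left) and V338Y mice (right); filled points passed the test, open points did not, and bars mark list medians. The neural matrix genes have medians of 0.59 and 0.43, and the fibrous matrix and basement membrane lists lie further right, at 1.06 to 1.33.

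Genes that build, cut and bind the neural matrix were counted next. Of 20 measured chondroitin sulfate synthesis genes, 6 rose and 7 fell in wild-type mice (median 0.10), and 4 rose and 6 fell in V338Y mice (median 0.01), shares near those of all genes (31.4% and 31.5%, and 23.1% and 25.7%). *Xylt1*, the enzyme that starts the chain on the core protein, rose by 0.92 and 0.42, and *Dse*, which converts glucuronic to iduronic acid, by 0.80 and 0.62, while *Ust*, which sulfates the uronic acid, fell by 0.66 and 0.94 in wild-type and V338Y mice. Of the hyaluronan genes, 5 of 9 measured in wild-type and 5 of 10 in V338Y mice rose and none fell, with *Cd44*, the hyaluronan receptor, up by 1.63 and 1.60 and the hyaluronidase *Hyal1* up by 1.07 and 0.92. Of 17 matrix protease and inhibitor genes, 10 rose and 4 fell in wild-type and 9 rose and 2 fell in V338Y mice. *Adamts9* rose by 1.45 and 1.26 and *Ctss* (cathepsin S of microglia) by 1.41 and 1.28, whereas the membrane-bound *Mmp24* fell in both (adjusted p = 8.8e-15 and 0.00675). Of 19 receptors and ligands of nets, 9 rose and 2 fell in wild-type and 6 rose in V338Y mice, among them *Cspg4* (the NG2 proteoglycan, 1.26 and 1.16), *Itgb1* (integrin beta, 0.997 and 0.932) and *Nrp1* (neuropilin, 0.76 and 0.77). The homeoprotein gene *Otx2*, whose product binds nets, fell in wild-type mice by 0.59 (adjusted p = 0.00968) and was at -0.05 ± 0.443 in V338Y mice (adjusted p = 0.943).

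The genotype comparisons use the same mice as the age comparisons. Between the genotypes at 3 months, none of the 10 passed (edgeR, where 0.0616% of 16241 genes passed; DESeq2 also 0). At an unadjusted p under 0.05 there were 2, where 5.02% of all genes were below that limit. *Vcan* was at 30.6 ± 2.31 CPM in wild-type and 38.5 ± 5.16 CPM in V338Y mice (mean ± SD), with every V338Y mouse above every wild-type one and a log2 difference of 0.33 ± 0.0998 (adjusted p = 0.848). *Hapln2* was at 39.7 ± 2.25 and 34.1 ± 3.44 CPM, with every V338Y mouse below every wild-type one and a difference of -0.21 ± 0.0773 (adjusted p = 0.926). *Hapln4* also did not overlap, being lower in V338Y mice by a log2 difference of -0.11 ± 0.0635 (adjusted p = 0.926), so 1 member was higher and 2 were lower with groups apart, where 1.37% and 1.86% of all genes were. The 95% intervals of the other differences, on the log2 scale, were -0.21 to 0.10 for *Bcan*, -0.16 to 0.15 for *Ncan*, -0.07 to 0.27 for *Tnr* and -0.14 to 0.24 for *Hapln1*. They were wider for *Acan* (-0.43 to 0.06), *Tnc* (-0.19 to 0.65) and *Ptprz1* (-0.08 to 0.68).

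At 19 months none of the 10 passed between the genotypes either (edgeR, where 3.12% of 16420 genes passed; DESeq2 also 0), and 3 had an unadjusted p under 0.05, where 16.2% of all genes did. *Ptprz1* was at 320.2 ± 19.2 CPM in wild-type and 287 ± 18.2 CPM in V338Y mice, with overlapping groups and a log2 difference of -0.16 ± 0.0467 (adjusted p = 0.0648). It passed without wild-type mouse 12 (-0.19, adjusted p = 0.0266), without V338Y mouse 20 (-0.20, adjusted p = 0.00893) and without the filter on counts (adjusted p = 0.0222), and its adjusted p ranged from 0.00893 to 0.776 over 14 alternatives. *Hapln4* was at 62.8 ± 2.95 and 69.8 ± 5.31 CPM (0.15 ± 0.0541, adjusted p = 0.129), and passed only without that filter (adjusted p = 0.0491). *Acan* was at 9.27 ± 0.599 and 10.9 ± 1.12 CPM (0.22 ± 0.104, adjusted p = 0.294) and was the 1 member whose groups did not overlap, higher in V338Y mice, as 4.49% of all genes were, although the nearest mice were in effect tied at 9.853 and 9.855 CPM. The intervals were narrow for *Bcan* (-0.07 to 0.08), *Ncan* (-0.14 to 0.04) and *Tnr* (-0.14 to 0.03) and wider for *Hapln2* (-0.04 to 0.33), *Vcan* (-0.32 to 0.02), *Tnc* (-0.15 to 0.23) and *Hapln1* (-0.17 to 0.16). In the same comparison 6 of the 24 fibrous matrix genes were lower and 1 higher in V338Y mice (median -0.16), with *Fmod* (fibromodulin, -0.67 ± 0.0920), *Ogn* (-0.64 ± 0.116) and *Bgn* (-0.55 ± 0.0967) lowest and *Col1a1* higher (0.25 ± 0.0644); meningeal fibroblast markers were lower in 3 of 7 (sums 148 to 182 CPM in wild-type and 119.5 to 146 CPM in V338Y mice), and their part was not tested. On library size alone the calls over all genes at this age split into 357 higher and 263 lower, in place of 196 and 316.

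**Figure D4:**
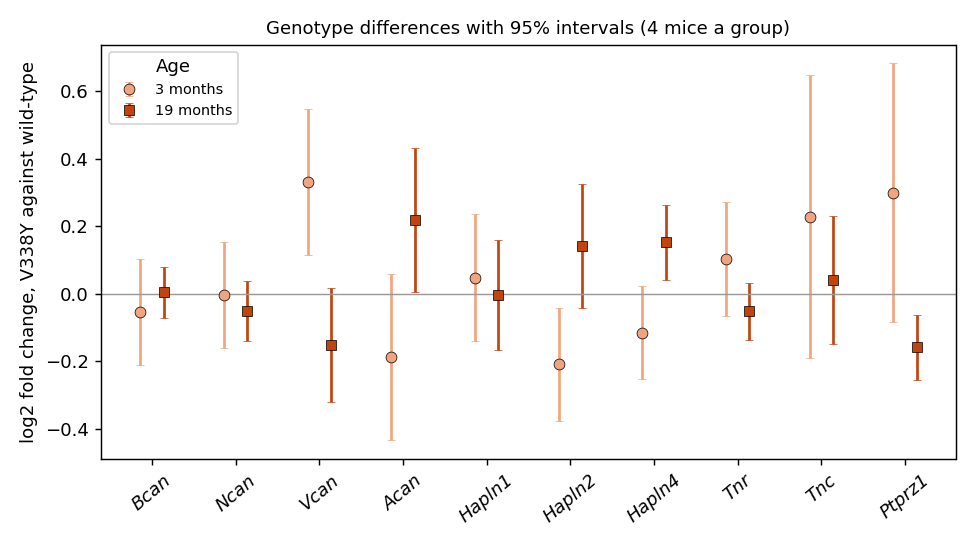
Difference between V338Y and wild-type mice (log2 fold change, y axis) for each of the 10 genes at 3 months (circles) and 19 months (squares), with 95% intervals, 4 mice a group. At 19 months *Bcan*, *Ncan* and *Tnr* have the narrowest intervals, each of which holds 0, and no gene passed after adjustment over all genes.

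The age difference itself was compared between the genotypes as an interaction over all 16 mice (V338Y minus wild-type). None of the 10 passed (edgeR, where 0.0535% of 16831 genes passed; DESeq2 also 0), and 5 had an unadjusted p under 0.05, where 10.2% of all genes did. The estimates of these 5 were negative, a smaller rise in V338Y mice, for *Vcan* (-0.48 ± 0.135, adjusted p = 0.238) and *Ptprz1* (-0.45 ± 0.181, adjusted p = 0.439) and positive for *Hapln2* (0.37 ± 0.120, adjusted p = 0.307), *Hapln4* (0.27 ± 0.0855, adjusted p = 0.265) and *Acan* (0.41 ± 0.151, adjusted p = 0.368). For *Vcan* the adjusted p fell to 0.0305 with the cerebellum marker score in the fit (-0.53), which leans on V338Y mouse 14. For *Bcan* the interval of the interaction was -0.11 to 0.24 and for *Ncan* -0.23 to 0.14 on the log2 scale. A gene called in wild-type and not in V338Y mice, such as *Vcan*, *Tnc* or *Hapln4*, was thus not shown to age differently between the genotypes.

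Ratios of a lectican to its neighbouring link protein gene, taken within each mouse per exon length, do not depend on library scaling. These ratios were chosen after the values were known. *Ncan* over *Hapln4* was 0.982 ± 0.0819 at 3 months and 2.10 ± 0.113 at 19 months in wild-type mice (SD, n = 4), and 1.06 ± 0.146 and 1.82 ± 0.109 in V338Y mice, and no young mouse, mouse 14 at 1.28 included, reached the lowest old one at 1.66. On the log2 scale the age difference was 1.10 in wild-type mice and 0.78 in V338Y mice. Both had an exact two-sided permutation p of 0.0286, the smallest that 70 assignments allow. *Vcan* over *Hapln1* was 0.759 ± 0.0632 and 1.01 ± 0.128 in wild-type mice (exact permutation p = 0.0286) and 0.938 ± 0.186 and 0.916 ± 0.0875 in V338Y mice (exact permutation p = 0.914). *Bcan* over *Hapln2* was between 2.38 and 2.91 by group mean, with log2 age differences of 0.03 in wild-type (exact permutation p = 0.771) and -0.30 in V338Y mice (exact permutation p = 0.0571). At 19 months *Ncan* over *Hapln4* was lower in V338Y than in wild-type mice by a log2 difference of -0.20 (exact permutation p = 0.0286, again the smallest possible). After adjustment over the 16 ratio tests, *Acan* over *Hapln3* included, the smallest permutation p was 0.0914. With 0.0286 as the smallest p possible, a ratio could pass this adjustment only if many of the 16 tests sat at that floor. The adjusted values therefore do not decide whether a ratio differed. Counts of *Hapln3* were too low to read its ratio to *Acan*.

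**Figure D5:**
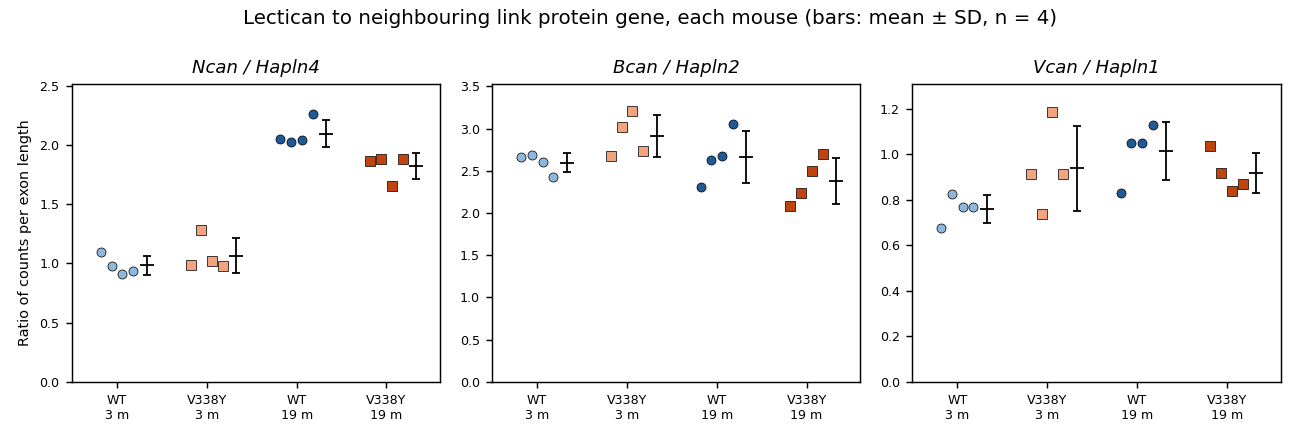
Ratio of lectican to neighbouring link protein gene (counts per exon length, y axis from 0) in each of the 16 mice, with the mean ± SD of 4 mice beside the points. *Ncan* over *Hapln4* is 1.66 or more in every old mouse and 1.28 or less in every young one, while the ages overlap for *Bcan* over *Hapln2* in both genotypes.

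Within the groups, the 10 genes did not vary as one. With the 4 group means removed, log2 CPM over the 16 mice correlated for *Bcan* and *Ncan* (Pearson r = 0.82) and for *Vcan* and *Ptprz1* (0.71), and inversely for *Vcan* and *Hapln2* (-0.71). The genes most like *Vcan* among 12205 were *Vps13b* (r = 0.92), *Afdn* (0.90) and *Zfp292* (0.90), and those most like *Hapln2* were *Igfbp2* (0.92), *Erlin2* (0.90) and *Pepd* (0.89). For *Acan* they were *Sugp2* (0.86), *Sat1* (0.85) and *Col9a2* (0.83), and for *Hapln4* they were *Adgra2* (0.81), *Cited2* (0.78) and *Sox1* (0.78). The residuals also went with those of marker lists. With the cerebellum markers r was -0.75 for *Bcan*, -0.64 for *Ncan*, 0.67 for *Ptprz1* and 0.49 for *Vcan*. With the microglia markers r was -0.82 for *Ptprz1* and 0.77 for *Hapln2*. Other lists had r of similar size. Examples are the neuron markers for *Bcan* (0.77) and *Ncan* (0.80) and the oligodendrocyte markers for *Ptprz1* (-0.80) and *Hapln2* (0.78). The part of these lists was not tested. Single young V338Y mice lay far from their group in the cerebellum and microglia scores (mean log2 CPM). For the cerebellum markers mouse 14 was at 2.39, against 6.09 to 6.55 in the other mice of its group. For the microglia markers mouse 15 was at 4.39, against 4.75 to 4.88. How far each r rests on these mice was not tested. All these correlations are descriptions over mice that share library preparation and scaling, and carry no test.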

How the data were processed

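The authors prepared libraries with a stranded kit and, per their paper, estimated counts with RSEM, whereas the submitters' processing notes name bcl2fastq 1.8.4, STAR 2.4.2a, featureCounts and GRCm38. Which of these made the table was not settled. The deposited values were handled like expected counts per gene; they are not normalized and are whole numbers of at most 4 significant digits. All 1495 values of 10000 or more ended in 0, and no member had so many. Symbols and positions came from GENCODE M21 for 37607 of 39179 identifiers. Sample labels gave genotype, age and mouse number.

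A gene was kept where 2 or more of a group's 4 mice had 10 or more counts. Counts were scaled with TMM (factors 0.954 to 1.05) and tested with the robust quasi-likelihood test of edgeR 4.0.16 in R 4.3.3 (limma 3.58.1), with Benjamini-Hochberg adjustment over all genes kept and a threshold of 0.05. The same steps were also run on simulated counts with the same dispersion for every gene, so that run does not show their error rate in these data. Log2 CPM used a prior count of 2. Replicates differed by more than sampling noise (chi-square per degree of freedom 1.81 to 25.0). The labels do not say that mice of a group are unrelated, so p-values measure the spread between these mice. Alternatives were DESeq2 1.42.0, other scalings and filters, a fit of all 16 mice, a cerebellum marker covariate and leaving out each mouse.

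The 10 genes and all lists were chosen with earlier results of these data known. Named were the 10 genes and *Mrps5* in every comparison and, of each pathway list, the 3 largest rises and falls past the threshold of those averaging 50 normalized counts or more, from which a selection is printed. Likeness was ranked among genes averaging 5 CPM or more. *Pvalb*, *Erbb4*, *Lox* in wild-type mice, *Col5a1*, *Col6a1* and the member pairs were singled out after their values were seen. Blood, choroid plexus, striatum, hindbrain, neuron and microglia markers were also counted.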

Additional observations from a re-analysis of the deposited data

Results flagged for a closer look

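*Hapln4* in the V338Y mice of 3 months stood out for 1 mouse. Mouse 14 was at 68.0 CPM, where mice 13, 15 and 16 were at 75.7, 76.0 and 76.2 CPM, a gap beyond Dixon's 95% limit for 4 samples. The same mouse had a summed cerebellum marker level of 100.3 CPM, against 1322 to 1972 CPM in the other 3. Chance marks about 1 in 20 groups in this way, and 40 groups (10 genes in 4 groups) were looked at. Without mouse 14 the age difference of *Hapln4* in V338Y mice was -0.12 on the log2 scale and still did not pass. Whether the cerebellum markers have a part in this level was not tested.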

How the results depend on the processing

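No paired analysis was possible because the groups compared share fewer than 2 mouse numbers and hold different animals. With the cerebellum marker score in the fit, wild-type age calls went from 9 members, 22 fibrous and 10115 of all genes to 0, 0 and 101, and *Bcan* (-0.66), *Ncan* (-0.75) and *Hapln2* (-0.49) turned negative; in V338Y mice all-gene calls went from 8181 to 4839 and *Hapln4* to 0.078; at 19 months the calls were 4 fibrous and 164 of all genes and *Ncan* was 0.020; and the interaction called 1 member (*Vcan*) and 159 genes, with *Ncan* at 0.011. In wild-type mice the score was nearly the age contrast, so that fit cannot tell the score from age. The causes of these shifts, the changes of sign included, were not tested. Between genotypes at 3 months, 10 genes passed, 26 with DESeq2, 20 without the filter, 23 in the fit of 16 mice and 6 to 13 without 1 mouse (6 without wild-type mouse 12); *Ncan* was 0.0021 with 10 counts in every sample, 0.0016 without the filter and -0.052 to 0.052 without 1 mouse. At 19 months 512 genes passed, 791 without the filter (2 members, *Hapln4* and *Ptprz1*), 120 in the fit of 16 mice (4 fibrous) and 287 to 611 without 1 mouse (0 to 1 member, 4 to 8 fibrous; 287 without V338Y mouse 19, 294 without wild-type mouse 13, and 4 fibrous without wild-type mouse 12 or V338Y mouse 19). There *Hapln1* was 0.016 on library size, 0.0087 without the filter and -0.065 to 0.036 without 1 mouse, *Tnc* -0.012 to 0.12 and *Bcan* -0.0063 to 0.017. The interaction called 9 genes, 43 with DESeq2, 32 without the filter and 1 to 57 without 1 mouse (57 without V338Y mouse 14, 18 without 15 or 16, 14 without 17, 4 or 5 without V338Y mouse 19 or old wild-type mouse 13, 14 or 15, and 1 without wild-type mouse 10), where *Ncan* ranged from -0.10 to 0.014 and *Hapln1* from -0.12 to 0.0041. On library size the wild-type age calls over all genes split into 4175 higher and 6321 lower, in place of 5050 and 5065, and 7 members were higher and 2 lower. All other alternatives kept direction and side of the threshold for *Bcan*, *Ncan*, *Tnr*, *Hapln2* and *Ptprz1* in both age comparisons. Depth limits *Acan*, *Tnc* and *Hapln1* most, with as few as 50, 92 and 127 counts in a mouse.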

Other observations

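Other marker lists were counted between the ages. In wild-type mice 31.4% of all genes passed as higher and 31.5% as lower. In V338Y mice 23.1% passed as higher and 25.7% as lower. Microglia markers were higher in 7 of 7 in both genotypes (sums 214 to 302 CPM at 3 months and 468 to 539 CPM at 19 months), and blood markers in 5 of 5 (sums 124 to 256 and 384 to 899.7 CPM). Neuron markers were lower in 6 and higher in 1 of 10 in wild-type mice and lower in 4 and higher in 1 in V338Y mice. Hindbrain markers were lower in 5 of 5 measured in wild-type and in 1 of 4 in V338Y mice. Striatum markers were lower in 2 and higher in 1 of 8 in wild-type mice, and lower in 4 and higher in 0 of 8 in V338Y mice. None of the 6 choroid plexus markers passed in either genotype, and their sums ranged from 149 to 2276 CPM among the old mice.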
